A study of Mus musculus with 6 samples.

Results

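Transcripts of 42 mouse genes that detect, signal and repair DNA double-strand breaks and crosslinks were compared between fibroblasts without and with FHL2, an adaptor protein built of LIM domains. The genes were chosen by name, with earlier results of these data known. Of them, 41 had a probe set annotated to that gene alone among the 18193 genes measured. No probe set of its own was annotated to Xrcc2, and H2afx is annotated as H2ax. Each gene was read through its brightest probe set over the 6 arrays. The cells were mouse embryonic fibroblasts from FHL2-/- mice (clones E, H and J) and from wild type (WT) mice (clones E, F and I). Every clone of either genotype had become immortal spontaneously in culture, and each was hybridised to 1 Affymetrix array. The labels call the clones biological replicates but say neither how the FHL2 allele was made nor whether each clone had its own embryo, so p-values measure the spread between clones. The shared letter E does not pair the clones.

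A broken chromosome can be repaired by homologous recombination, which copies the intact sister chromatid in S and G2 phase, or by end joining, which ligates the ends directly. The Fanconi anaemia proteins detect crosslinks between the strands at stalled forks and hand them to nucleases and recombination. The kinases ATM and ATR and their targets CHK2 and CHK1 halt the cell cycle meanwhile, and many of these genes are expressed more strongly as dividing cells enter S phase.

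Levels are log2 RMA intensities, in which 1 unit is a 2-fold change in signal, and differences are FHL2-/- minus WT with the standard error (SE) of a limma fit over all 18193 genes, n = 3 clones per genotype. A gene is said to rise or fall where its p-value, adjusted over all genes by Benjamini-Hochberg, lay under 0.05. With clones always in the order E, H, J for FHL2-/- and E, F, I for WT, Fhl2 read 6.01, 6.44 and 6.57 in the FHL2-/- clones, against 9.88, 8.57 and 9.64 in the WT clones, so the targeted transcript lay lower in every clone labelled knockout (-3.02, SE 0.35, limma adjusted p = 0.00400). An exact two-sided permutation test gave p = 0.1, the smallest value possible with 20 assignments of the clones. Fhl2 still read above the median gene level of 5.92 in every FHL2-/- clone. Its probe set is of a type that may match several transcripts, and whether it lies in the altered part of the gene is not known. Of 10 fibroblast markers 2 rose, 2 fell and 6 did not pass, against rises in 9.04% and falls in 10.0% of all genes. The collagen gene Col1a1 read 13.34 to 13.56 in FHL2-/- and 13.04 to 13.37 in WT clones. Lum (4.81) and Pdgfra (1.76) rose and Thy1 (-1.34) and Pdgfrb (-0.64) fell, and Lum lay below the median gene level of 5.92 in WT clones E and I. Of the 4 epithelial, 4 blood and 3 muscle markers, 3, 3 and 2 stayed below that level in every clone, as did 2 of 4 endothelial markers, while Tek, a receptor of endothelial cells, read 8.36, 4.68 and 8.91 in FHL2-/- clones against 2.54 to 3.31 in WT clones. Epcam, the only epithelial marker that passed, lay above the median gene level in every clone and rose (0.43, SE 0.10, limma adjusted p = 0.0327). Its probe set is of a type that may cross-hybridize. Krt18 lay lower in every FHL2-/- clone without passing (-1.01, limma adjusted p = 0.130), and Krt8 and Cdh1 each differed by 0.02. The summed level of the 4 endothelial markers was 7.44 to 9.07 in FHL2-/- and 6.04 to 7.07 in WT clones. The part of these marker differences in the results below was not tested. In bulk RNA, fewer cells in a given cycle phase and less RNA per cell cannot be told apart.

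Of the 41 repair and checkpoint genes, 12 fell in FHL2-/- clones, 1 rose and 28 did not pass the test. Falls made up 29.3% of the members, against 10.0% of all genes tested, and the rise made up 2.44%, against 9.04%. These shares were not tested, and the members were chosen with earlier results of these data known. The median difference was -0.27 over the members and 0.04 over all genes, with -0.146 over the members without FHL2-/- clone H and -0.178 without probe sets that may match several transcripts. In 18 members every FHL2-/- clone lay below every WT clone (43.9%, against 18.2% of all genes), and in 4 every FHL2-/- clone lay above (9.76%, against 20.7%). By class, the falls were 5 of 9 checkpoint genes, 4 of 16 homologous recombination genes, 2 of 9 Fanconi genes and 1 of 7 end joining genes; these classes are small and the differences between them were not tested. The class medians were -0.74 for the checkpoint genes, -0.05 for homologous recombination, -0.50 for the Fanconi genes and -0.18 for end joining. Over the alternative settings and left-out clones, the homologous recombination median ran from -0.153 to 0.088, the highest without WT clone E, and the Fanconi median from -0.612 to -0.14, the highest with probe sets averaged. The end joining median ran from -0.257 to 0.009, with -0.05 without FHL2-/- clone H.

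**Figure D1:**
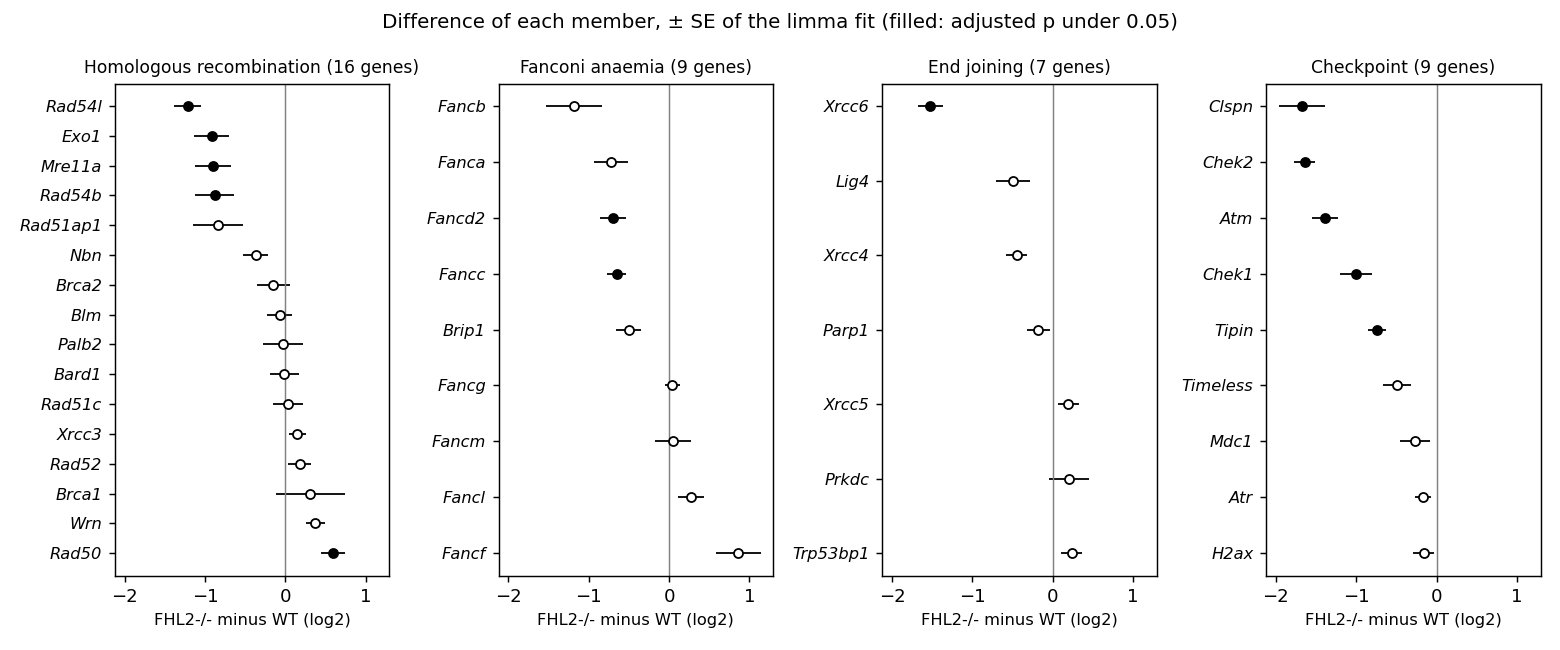
Difference of each of the 41 genes, FHL2-/- minus WT on the log2 scale (horizontal axis), by class; points are limma estimates, bars ± 1 SE, and filled points passed at an adjusted p under 0.05 (n = 3 clones per genotype). All 9 checkpoint genes lie left of 0, against 43.6% of all genes, while the other classes spread to both sides, from -1.53 for Xrcc6 to 0.86 for Fancf.

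The largest falls, of Clspn and Chek2, were those of checkpoint genes. All 9 genes of this class lay below 0, against 43.6% of all genes, and 4 of the 9 did not pass. Clspn encodes claspin, which holds CHK1 to ATR at stalled forks. It read 5.47, 4.74 and 5.28 in FHL2-/- clones, against 7.39, 6.59 and 6.53 in WT clones. Clspn fell by 1.67 (SE 0.29, limma adjusted p = 0.0124), or 3.19-fold, and the genotypes were 1.06 apart at their nearest clones. Chek2, the kinase that ATM activates at breaks, read 5.62, 5.58 and 5.64 in FHL2-/- clones, against 7.49, 7.22 and 7.06 in WT clones. Its 3 FHL2-/- readings had an SD of 0.032, and the fall of 1.64 (SE 0.13, adjusted p = 0.00160), or 3.11-fold, was 12.5 times its SE, the highest such ratio of any member.

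Atm, the kinase that responds to double-strand breaks, read 6.47, 6.17 and 6.26 in FHL2-/- clones, against 7.37, 7.83 and 7.87 in WT clones. It fell by 1.39 (SE 0.17, adjusted p = 0.00426), or 2.62-fold, and a probe set of almost the same brightness for it fell as well (-0.64, adjusted p = 0.0375 over all probe sets). Here WT clone E was the lowest of the WT clones, unlike in most members. Atr, the related kinase that responds to single-stranded DNA, did not pass, at -0.17 (SE 0.10, adjusted p = 0.309).

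Chek1, the effector kinase of ATR, read 6.32, 6.50 and 6.08 in FHL2-/- clones, against 7.60, 6.93 and 7.37 in WT clones. It fell by 1.0 (SE 0.20, adjusted p = 0.0196), and another probe set fell by 1.16, while 3 dimmer ones did not pass. The call was lost without FHL2-/- clone E (adjusted p = 0.0584) or J (0.0689), or WT clone E (0.0647) or I (0.0656), at differences of -0.85 to -1.01. Tipin, which travels with the replication fork as the partner of Timeless, was the brightest of the members that fell and had narrow groups. It read 8.85, 8.71 and 8.72 in FHL2-/- clones, against 9.66, 9.45 and 9.39 in WT clones, a fall of 0.74 (SE 0.11, adjusted p = 0.00826).

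Its partner Timeless read lower by the fit but its groups overlapped by a small margin (-0.49, SE 0.18, adjusted p = 0.103). A second, dimmer Timeless probe set lay lower in every FHL2-/- clone and did not pass (-0.61, limma adjusted p = 0.0783 over all probe sets). Neither gene of the chromatin marks at breaks passed: H2ax, the histone variant phosphorylated around them, differed by -0.16 (SE 0.13, adjusted p = 0.452), and Mdc1, the scaffold that reads this mark, by -0.27 (SE 0.19, adjusted p = 0.383). Clspn, Chek2, Atm and Tipin fell also in each of the 6 fits that left out 1 clone.

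The promoter windows of Chek2, Clspn and Atm are shown because these genes had the largest falls of the class. They are RefSeq sequences of build GRCm38.p6 that run from 250 bases before to 50 after the annotated start, printed 5′ to 3′ on the gene's strand. Capitals mark the letters TTTGGCGC, TTTCGCGC, TTTGCCGC or TTTCCCGC, forms bound by E2F factors of the G1/S transition, and CCAAT, the box bound by NF-Y, each on either strand. The forms of these motifs do not overlap each other in the windows shown.
Chek2, chr5:110839733-110840032, plus strand: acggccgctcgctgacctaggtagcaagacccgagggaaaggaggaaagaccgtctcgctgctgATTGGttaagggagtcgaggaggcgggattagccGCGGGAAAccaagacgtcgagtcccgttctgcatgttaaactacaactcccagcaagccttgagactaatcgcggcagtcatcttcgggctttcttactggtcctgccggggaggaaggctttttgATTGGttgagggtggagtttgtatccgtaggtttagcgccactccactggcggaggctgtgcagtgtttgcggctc
Clspn, chr4:126556730-126557029, plus strand: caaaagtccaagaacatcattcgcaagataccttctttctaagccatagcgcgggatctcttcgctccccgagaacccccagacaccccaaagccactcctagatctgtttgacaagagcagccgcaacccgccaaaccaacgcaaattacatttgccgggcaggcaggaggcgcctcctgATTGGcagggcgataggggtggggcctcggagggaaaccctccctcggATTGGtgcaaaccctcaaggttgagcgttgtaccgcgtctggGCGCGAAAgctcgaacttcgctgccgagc
Atm, chr9:53536622-53536921, minus strand: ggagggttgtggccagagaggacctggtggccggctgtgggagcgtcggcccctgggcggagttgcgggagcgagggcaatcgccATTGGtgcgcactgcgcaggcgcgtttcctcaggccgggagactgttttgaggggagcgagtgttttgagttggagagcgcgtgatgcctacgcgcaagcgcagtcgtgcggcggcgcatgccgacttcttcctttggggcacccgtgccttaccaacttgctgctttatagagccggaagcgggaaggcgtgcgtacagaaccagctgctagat
The Chek2 window held GCGGGAAA at bases 99 to 106 and the Clspn window GCGCGAAA at bases 272 to 279. No E2F form was in the Atm window, which says only that these letters are not in it; all 3 windows held a CCAAT box, Chek2 and Clspn 2 each and Atm 1.

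Windows were listed for 32 of the 41 members, among them 8 of the 12 that fell, and a gene with several starts counts once. An E2F form was found in 8 of the 32 (25.0%), against 3.80% of the 14368 measured genes with a window. It was found in 3 of the 8 members that fell and in 5 of the 24 that did not pass, namely Bard1, Brca2, Fancg, Mdc1 and Rad51c. The Chek1 window ends in GCGGGAA, and a form that crosses a window's edge was not counted. CCAAT was found in 19 of the 32 members (59.4%), against 42.0% of measured genes, and in 7 of the 8 that fell, all but Chek1. TTTGAA, the core of the CHR element of late cell cycle genes, was found in 1 of the 32 (3.12%), against 15.7% of measured genes. These matches describe the letters of the windows and do not show binding.

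Of the 16 homologous recombination genes, 4 fell (Rad54l, Exo1, Mre11a and Rad54b), 1 rose (Rad50) and 11 did not pass. Falls made up 25.0% and the rise 6.25%, against 10.0% and 9.04% of all genes. Rad54l, a motor protein of strand exchange, read 5.48, 5.29 and 5.07 in FHL2-/- clones, against 6.79, 6.35 and 6.34 in WT clones. It fell by 1.21 (SE 0.17, limma adjusted p = 0.00687), or 2.32-fold, and was the only gene of this class that fell in all 6 fits that left out 1 clone. The 3 other probe sets of Rad54l were dim, with mean levels under 4.5, and differed by -0.09 to 0.05. Averaged over all 4 probe sets, Rad54l differed by -0.32 and did not pass (adjusted p = 0.0575).
Rad54l, chr4:116123640-116123939, minus strand: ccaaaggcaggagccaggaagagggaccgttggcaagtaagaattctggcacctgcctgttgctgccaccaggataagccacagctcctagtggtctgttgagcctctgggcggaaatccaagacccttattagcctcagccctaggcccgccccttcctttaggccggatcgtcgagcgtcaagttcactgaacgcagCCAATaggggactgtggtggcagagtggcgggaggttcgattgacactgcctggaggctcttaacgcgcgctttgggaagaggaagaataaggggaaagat
The Rad54l window, shown because of this fall, held no E2F form and 1 CCAAT box, at bases 200 to 204.

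Rad54b, a relative of Rad54l, was dim in all clones, at 3.26, 3.47 and 3.04 in FHL2-/- clones, against 4.65, 3.84 and 3.91 in WT clones, and differed by -0.88 (SE 0.24, adjusted p = 0.0491, and 0.0514 where probe sets that may match several transcripts were left out of the table). Exo1, an exonuclease that resects broken ends, read 4.80, 4.5 and 4.41 in FHL2-/- clones, against 5.93, 5.23 and 5.28 in WT clones, a fall of 0.91 (SE 0.22, adjusted p = 0.0330). WT clone E was the highest clone for both, and without it the differences were -0.62 (adjusted p = 0.0756) and -0.69 (0.0568). Each of these calls was also lost without FHL2-/- clone E or J, or WT clone F or I (adjusted p = 0.0675 to 0.15 for Rad54b and 0.054 to 0.11 for Exo1). A second Exo1 probe set did not pass (-0.71, adjusted p = 0.0713), and averaged over its probe sets Exo1 differed by -0.53 (adjusted p = 0.0679).

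The 3 subunits of the MRN complex, which binds broken ends and activates ATM, did not share a direction. Mre11a, its nuclease, read 6.67, 7.12 and 6.47 in FHL2-/- clones, against 8.01, 7.48 and 7.47 in WT clones, and fell by 0.90 (SE 0.22, adjusted p = 0.0367). Rad50, its ATPase, read 7.89, 7.41 and 7.78 in FHL2-/- clones, against 6.98, 7.15 and 7.17 in WT clones, and rose by 0.59 (SE 0.15, adjusted p = 0.0404), the only rise among the members. Nbn, the subunit that recruits ATM, differed by -0.37 (SE 0.15, adjusted p = 0.151).

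Of the 6 fits that left out 1 clone, Mre11a and Rad50 each passed in 1, the fit without FHL2-/- clone H. Without another clone the adjusted p was 0.0697 to 0.114 for Mre11a and 0.0894 to 0.132 for Rad50. The Mre11a probe set with the fall is of a type that may match several transcripts; with such probe sets left out, the direction turned (0.06, adjusted p = 0.845), since the other, dimmer probe set was then read. Averaged over both, Mre11a differed by -0.42 and did not pass (adjusted p = 0.0938). Averaged over its probe sets, Rad50 differed by 0.36 (adjusted p = 0.0569). The rise of Rad50 also did not pass once the median of its 40 neighbouring genes was subtracted in each clone (0.35, adjusted p = 0.156).

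Rad51ap1, which promotes strand invasion, read 6.40, 5.62 and 5.95 in FHL2-/- clones, against 7.43, 6.56 and 6.48 in WT clones. The groups lay 0.078 apart at their nearest clones and the difference did not pass (-0.83, SE 0.31, adjusted p = 0.118), with -0.79 to -1.06 in the 3 other probe sets. Wrn, the helicase lost in Werner syndrome, lay higher in every FHL2-/- clone without passing (0.37, SE 0.12, adjusted p = 0.0771), and passed without FHL2-/- clone H (0.46, adjusted p = 0.0309).

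The genes of the BRCA proteins and their partners did not pass. Brca2, a mediator of strand invasion, differed by -0.15 (SE 0.20), Palb2, its link to BRCA1, by -0.03 (SE 0.25), and Bard1, the ubiquitin ligase partner of BRCA1, by -0.01 (SE 0.18). Brca1 differed by 0.31 (SE 0.43, adjusted p = 0.671) and varied most within the genotypes of this class, at 7.33, 5.81 and 6.56 in FHL2-/- clones, against 6.71, 5.65 and 6.41 in WT clones; 3 further probe sets for it differed by 0.07 to 0.28. The helicase Blm differed by -0.07 (SE 0.16), Rad52 by 0.18 (SE 0.14), and the recombination genes Rad51c and Xrcc3 by 0.04 (SE 0.19) and 0.15 (SE 0.11). None of these 8 genes passed, with adjusted p of 0.396 or more.

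**Figure D2:**
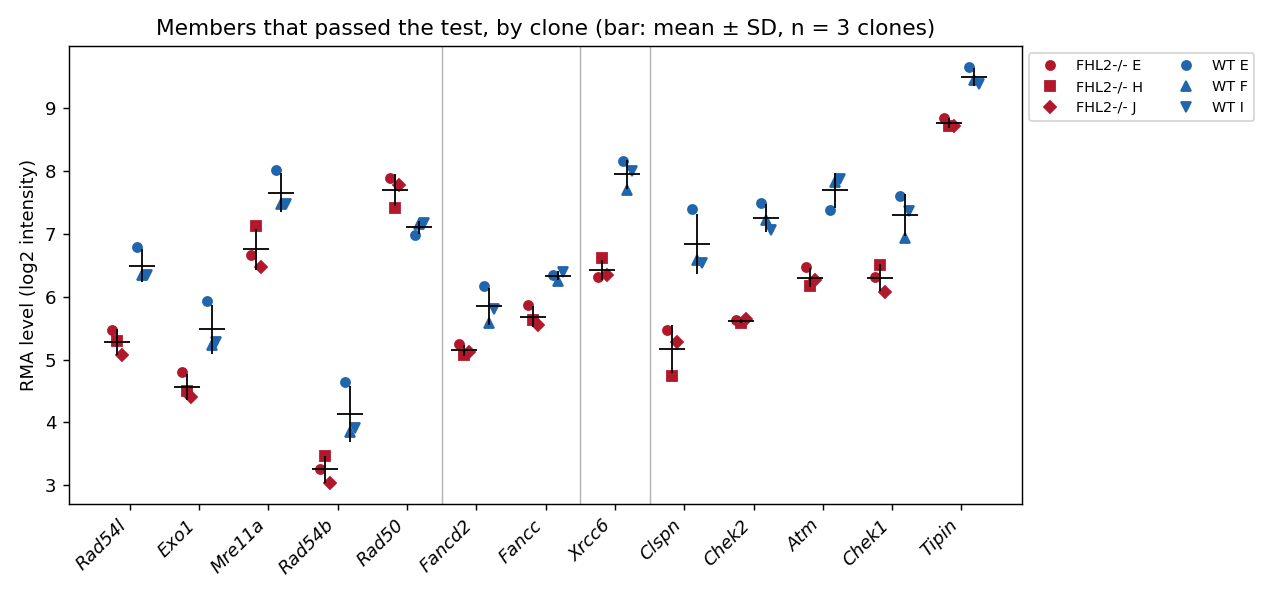
Level of the 13 genes that passed, in log2 intensity (vertical axis), with FHL2-/- clones in red left of WT clones in blue and clones by symbol; bars are mean ± SD over 3 clones, and grey lines part homologous recombination, Fanconi, end joining and checkpoint genes. For each gene the FHL2-/- clones lie wholly on one side of the WT clones, above them for Rad50 and below them for the other 12.

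Of the 9 Fanconi anaemia genes, 2 fell (22.2%), 0 rose and 7 did not pass. Over all genes, 10.0% fell and 9.04% rose. Fancd2, the protein whose ubiquitination marks a crosslink for repair, read 5.24, 5.07 and 5.12 in FHL2-/- clones, against 6.16, 5.58 and 5.80 in WT clones. The fall was -0.70 (SE 0.16, limma adjusted p = 0.0312), and it did not pass without FHL2-/- clone E (0.0681) or J (0.0983), or WT clone E (0.0636) or I (0.0796). Fancc, of the core complex that ubiquitinates FANCD2, read 5.87, 5.63 and 5.54 in FHL2-/- clones, against 6.35, 6.25 and 6.40 in WT clones. Fancc differed by -0.65 (SE 0.12, adjusted p = 0.0146), and did not pass without FHL2-/- clone J (0.054) or WT clone E (0.0571) or I (0.0518). The other probe sets of these genes, all dimmer, differed by -0.13 to 0.01 for Fancd2 and by 0.005 and 0.23 for Fancc; averaging all probe sets left -0.22 (adjusted p = 0.201) and -0.14 (0.339).

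Of the core complex genes only Fancc passed, and the estimates of the others lay on both sides of 0. Fancb read 4.71, 4.33 and 4.49 in FHL2-/- clones, against 6.37, 5.79 and 4.94 in WT clones, and its difference of -1.19 did not pass (SE 0.35, adjusted p = 0.0608). The WT clones were widely spread, with clone I nearest to the FHL2-/- clones. Without WT clone I it was -1.57 (adjusted p = 0.0173). A second Fancb probe set of almost the same brightness did not pass, with a difference of 0.06 (limma adjusted p = 0.846 over all probe sets). Fanca read 5.84, 5.54 and 5.73 in FHL2-/- clones, against 6.87, 6.34 and 6.07 in WT clones (-0.72, SE 0.21, adjusted p = 0.0618). By their brightest probe sets, both genes lay lower in every FHL2-/- clone.

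Fancf, the adaptor of the core complex, lay the other way. It read 7.71, 8.67 and 7.61 in FHL2-/- clones, against 7.12, 7.13 and 7.17 in WT clones, and did not pass (0.86, SE 0.28, adjusted p = 0.0815). FHL2-/- clone H was the highest clone by far, and without it the difference was smaller but passed (0.52, adjusted p = 0.0151). Fancl, the ubiquitin ligase of the complex, differed by 0.27 (SE 0.16), Fancg by 0.04 (SE 0.10) and Fancm, the DNA translocase that anchors it, by 0.05 (SE 0.23). Brip1, a helicase that binds BRCA1 and is also known as FANCJ, was dim and lay lower in every FHL2-/- clone (-0.50, SE 0.15, adjusted p = 0.0684).

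End joining held 1 fall and 0 rises among 7 genes, and that fall was among the largest. Its share of falls, 14.3%, was near the 10.0% of all genes, and rises made up 9.04% of all genes. Xrcc6 encodes Ku70, which with Ku80 encircles broken ends and starts end joining. It read 6.32, 6.61 and 6.35 in FHL2-/- clones, against 8.15, 7.70 and 8.0 in WT clones. Xrcc6 fell by 1.53 (SE 0.15, limma adjusted p = 0.00265), or 2.88-fold, and fell in all 6 fits that left out 1 clone. Xrcc5, which encodes Ku80, read 7.03, 6.73 and 7.11 in FHL2-/- clones, against 6.80, 6.68 and 6.81 in WT clones, with overlapping groups and a difference of 0.20 (SE 0.13, adjusted p = 0.347). The partners of the Ku dimer thus had differences of -1.53 and 0.20; the difference between them was not tested, and a second Xrcc6 probe set near the bottom of the scale, at 2.81 to 3.12, differed by 0.15.
Xrcc6, chr15:82016119-82016418, plus strand: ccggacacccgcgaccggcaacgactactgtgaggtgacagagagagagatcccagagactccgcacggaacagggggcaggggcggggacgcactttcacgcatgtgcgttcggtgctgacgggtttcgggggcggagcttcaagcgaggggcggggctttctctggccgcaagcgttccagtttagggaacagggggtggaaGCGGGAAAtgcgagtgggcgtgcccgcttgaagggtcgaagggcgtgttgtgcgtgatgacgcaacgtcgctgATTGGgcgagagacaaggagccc
The Xrcc6 window, shown because of this fall, held GCGGGAAA at bases 205 to 212 and a CCAAT box at bases 278 to 282.

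The other end joining genes did not pass. Prkdc, the kinase that Ku recruits, differed by 0.20 (SE 0.25) and its WT clones ran from 5.70 to 6.48. The ligase Lig4 and its partner Xrcc4 lay lower in every FHL2-/- clone, with differences of -0.49 for Lig4 (SE 0.21, adjusted p = 0.160) and -0.45 for Xrcc4 (SE 0.13, adjusted p = 0.0569). Trp53bp1, which shields ends from resection, differed by 0.24 (SE 0.13, adjusted p = 0.263), and Parp1, which binds strand breaks and serves alternative end joining, by -0.18 (SE 0.14, adjusted p = 0.437). The other Parp1 probe sets, all dimmer, differed by -0.38, -0.52 and 0.05 and did not pass. The probe sets of Trp53bp1 disagreed: a dimmer one read 5.72, 5.24 and 5.88 in FHL2-/- clones, against 4.11, 4.42 and 4.70 in WT clones (1.2, adjusted p = 0.0155 over all probe sets), while the brightest did not pass.

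**Figure D3:**
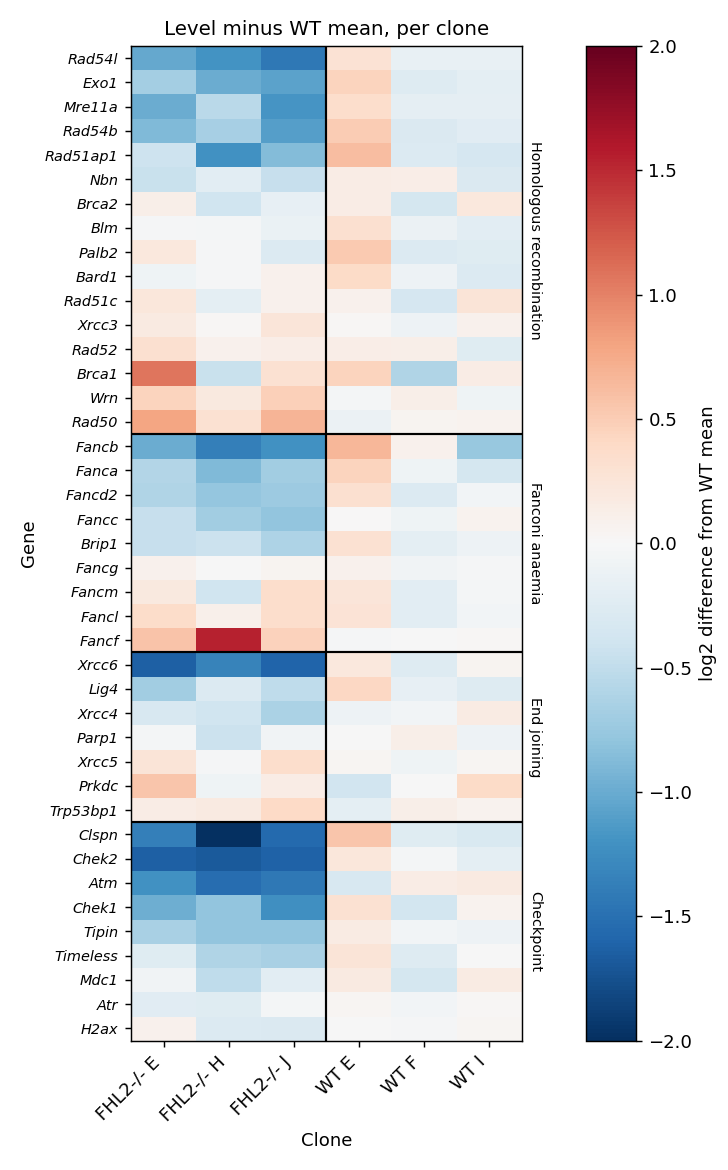
Level of each of the 41 genes in each clone minus the mean of its 3 WT clones (colour, log2 scale, blue lower and red higher), genes by class and FHL2-/- clones left of WT clones. Genes such as Chek2, Clspn, Xrcc6 and Rad54l are blue in all 3 FHL2-/- clones, Fancf is deepest red in FHL2-/- clone H, and WT clone E is redder than WT clones F and I in most rows.

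Within each genotype the clones were ranked alike for many members. WT clone E was the highest WT clone for 27 of the 41 members (65.9%), against 32.7% of all genes, and its median level relative to the WT mean was 0.20, against -0.10 in WT clone F and -0.05 in WT clone I. The values of WT clone E are written with 9 decimals and the others with 3. FHL2-/- clone E was the highest FHL2-/- clone for 25 members (61.0%, against 33.8% of all genes), and FHL2-/- clone H the lowest for 23 (56.1%, against 42.0%). Relative to the WT mean, the median over members was -0.23 in FHL2-/- clone E, -0.41 in clone H and -0.29 in clone J. The spread among clones was wider than for a typical gene, with a median SD of 0.2 among FHL2-/- and 0.256 among WT clones, against 0.166 and 0.149 over all genes. Of the 12 falls, 7 remained without FHL2-/- clone E, 6 without FHL2-/- clone J, 6 without WT clone E, 9 without WT clone F and 6 without WT clone I, where Fanca and Fancb fell besides; all 12 remained without FHL2-/- clone H.

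Of the 12 genes that fell, 4 lie on chromosome 9 (Atm, Chek1, Tipin and Mre11a), 3 on chromosome 4 (Rad54l, Rad54b and Clspn) and 1 each on chromosomes 15 (Xrcc6), 1 (Exo1), 5 (Chek2), 6 (Fancd2) and 13 (Fancc). Over all genes, falls made up 12.9% on chromosome 9, 18.8% on chromosome 4 and 16.9% on chromosome 15, against 10.0% on all chromosomes. They made up 8.14% on chromosome 1, 10.8% on chromosome 5, 12.1% on chromosome 6 and 8.4% on chromosome 13, and 5.68% on chromosome 11, where Rad50 lies. Rises made up 17.2% of the genes on chromosome 11, against 9.04% of all genes. All 6 members on chromosome 9 lay below 0, among them the checkpoint genes Atr and H2ax, which did not pass. With the median of 40 neighbouring genes subtracted in each clone, all 12 falls remained and 16 members fell in all, the others being Fanca, Fancb, Brip1 and Xrcc4; Wrn rose (0.56, adjusted p = 0.0257).

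Of 45 measured genes of break and crosslink repair outside the members, 8 fell (17.8%) and 3 rose (6.67%), at a median of -0.15. The shares over all genes were 10.0% and 9.04%. Of the 45 genes, 32 had a mean at or above the median gene level. Tested alone, the 9097 genes at or above that level held 3142 calls, against 3464 among all 18193. The part of level in these shares was not tested. Ube2t, the ubiquitin-conjugating enzyme that acts on FANCD2, fell by 1.60 (SE 0.27, limma adjusted p = 0.0114). Rpa2 and Rpa1, subunits of the protein that coats single-stranded DNA, fell by 1.28 (SE 0.25) and 0.70 (SE 0.13). Cdc25a, the phosphatase that CHK1 and CHK2 inactivate, fell by 0.94 (SE 0.17), Topbp1, the activator of ATR, by 0.62 (SE 0.14), and the ubiquitin ligase Rad18 fell by 1.1 (SE 0.27). Rad51d, a recombination gene, rose by 0.80 (SE 0.15) and Polm, a polymerase of end joining, by 0.59 (SE 0.14).

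In excision and mismatch repair 7 of 28 genes fell (25.0%, against 10.0% of all genes) and 2 rose (7.14%, against 9.04%), with a median of -0.27. Msh3, a mismatch sensor, fell by 0.95 (SE 0.16) and Ercc3, a helicase of TFIIH, by 0.96 (SE 0.16), while Ercc5, the XPG nuclease, rose by 1.03 (SE 0.15). The DNA replication list held 9 falls (27.3%, against 10.0% of all genes) and 0 rises (against 9.04%) among 33 genes (median -0.54). The mitosis list held 14 falls (60.9%) and 0 rises among 23 (median -1.01). Cdc45, of the replicative helicase, fell by 1.28 (SE 0.13) and Foxm1, which drives G2/M genes, by 1.67 (SE 0.22). The replication and mitosis lists thus had negative medians like the repair members. WT clone E was the highest WT clone in 26 of the 33 replication genes and 23 of the 23 mitosis genes, against 32.7% of all genes. The part of these lists in the result on the repair genes was not tested.

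Transcripts that p53, a target of ATM and CHK2, is known to switch on lay mostly but not all higher in FHL2-/- clones. Of those measured, 14 lay above 0 and 4 below (22.2%, against 43.6% of all genes). Of 18 measured p53 targets, 9 rose, 1 fell and 8 did not pass, against rises in 9.04% and falls in 10.0% of all genes, and the median was 0.66. The fall was that of Gadd45a, a stress-induced gene (-2.97, SE 0.52, limma adjusted p = 0.0125), named after its value was seen. Trp53inp1 rose by 3.06 (SE 0.15) and Zmat3 by 2.41 (SE 0.14). Cdkn1a, which encodes the cell cycle inhibitor p21, read 10.23, 11.15 and 10.76 in FHL2-/- clones, against 7.07, 6.65 and 7.31 in WT clones. The 3 FHL2-/- clones thus combined lower Atm and Chek2 transcripts with higher Cdkn1a (3.70, SE 0.27, limma adjusted p = 0.00131). Transcript levels do not measure the activity of either kinase.

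**Figure D4:**
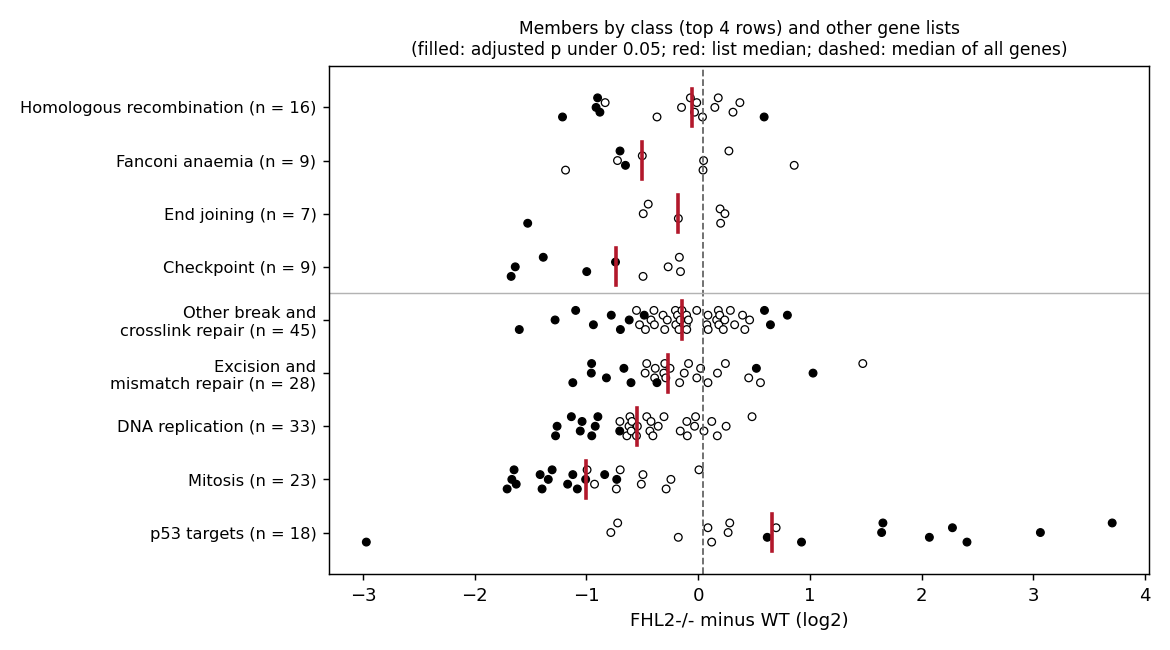
FHL2-/- minus WT (log2, horizontal axis) for every measured gene of the 4 member classes (upper rows) and of 5 other lists (lower rows); filled points passed at an adjusted p under 0.05, red bars are list medians and the dashed line is the median of all genes (0.04). The checkpoint class (median -0.74) lies between the replication (-0.54) and mitosis (-1.01) lists, homologous recombination (-0.05) near the line for all genes, and the p53 targets (0.66) to its right.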

How the data were processed

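RNA of 6 clones had been labelled with biotin and hybridised to Affymetrix arrays, per the labels, and the deposited table holds 45101 probe sets. The deposited values are log2 intensities that the authors made with RMA, per the submitters' processing notes; the sources used here give neither the RMA settings nor whether WT clone E was processed apart. Array medians were 4.52 to 4.54 in FHL2-/- and 4.44 to 4.46 in WT clones. Arrays have no read depth, so the number of clones limits the precision (4 residual degrees of freedom; median SE 0.141).

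Control probe sets (64), probe sets with several genes (932) or none (9160) were left out, which left 34945 probe sets of 18193 genes, each gene read by its brightest one with no filter on level. Of the 41 measured members, 25 had a mean at or above the median gene level, and 27 had several probe sets. The shares over all genes were not matched to the members or lists by level. Names came from the platform's annotation and RefSeq's GRCm38.p6 table, which was otherwise used for chromosomes and the order of neighbouring genes. The test was limma (version 3.58.1, under R 4.3.3) with its lmFit and eBayes functions (two-sided, Benjamini-Hochberg over all genes at 0.05). The procedure was tried on simulated data with independent noise for each gene, which did not cover shifts shared by many genes of a clone. Lists were described by counts and medians.

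Members with an adjusted p under 0.05 or among the 15 largest differences are given by clone. Of each other list some of the 4 genes with the smallest p are named (8 for further break and crosslink repair), with Fhl2 and Cdkn1a. Gadd45a, the epithelial markers, the fibroblast markers that passed, and clone values of Brca1, Xrcc5, Tek and a Trp53bp1 probe set were chosen after they were seen. The members, lists and tests were chosen with earlier results of these data known; motif letters, probe set tests and the neighbour subtraction were added after seeing the data. Alternatives were array weights, median centring, a second quantile normalization, a robust prior with a trend, only genes at or above the median level, averaged probe sets, no probe sets that may match several transcripts or cross-hybridize (suffix a, s or x) and leaving out each clone. Some listed genes were not analysed here. Plots came from matplotlib 3.10.9 (Python 3.11.15).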

Additional observations from a re-analysis of the deposited data

How the results depend on the processing

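Of 13 calls among the members, 6 held in all 6 fits that left out 1 clone (Chek2, Clspn, Atm, Tipin, Rad54l and Xrcc6). The cause of the changes below was not tested, except that fits without a clone have fewer samples. No paired analysis was possible because the groups share only the clone letter E. With 1 clone left out, the number of genes called over all genes was 1661 to 4750, against 3464 with all clones. It was 2079 without FHL2-/- clone E, 4750 without FHL2-/- clone H and 1733 without FHL2-/- clone J. It was 1661 without WT clone E, 1910 without WT clone F and 2145 without WT clone I. In the fit with array weights, FHL2-/- clone H had the lowest weight, 0.385, against 1.07 to 1.56 for the other clones. In the fits without 1 clone, members that fell numbered 6 to 12 and members that rose 0 to 3. In the same fits the falls numbered 1 to 4 in homologous recombination and 0 to 2 among the Fanconi genes, and the end joining median ran from -0.249 to -0.05. With averaged probe sets 7 members fell and 0 rose, with 1 fall in homologous recombination and 0 among the Fanconi genes, and the Fanconi and checkpoint medians were -0.14 and -0.553. Members that rose numbered 0 with the trended prior or centred arrays and 2 with array weights. Falls in homologous recombination numbered 1 over genes at or above the median level, where fewer genes were tested, and 2 without cross-hybridizing probe sets; the Fanconi medians there were -0.188 and -0.229, and the end joining median over the brighter genes was 0.009. End joining held 2 falls with centred arrays, with the brighter genes, with array weights and with neighbours subtracted, and the Fanconi class 5 falls with neighbours subtracted.

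Signs turned in genes that had not passed and did not pass then: Brca1 without FHL2-/- clone E (-0.068; 0.688 at most, without FHL2-/- clone H), Bard1 with array weights (0.006) and without FHL2-/- clone E (0.025) or WT clone E (0.174; lowest -0.149), Palb2 without FHL2-/- clone J (0.089) or WT clone E (0.228; lowest -0.17), Rad51c with centred arrays (-0.012) and without FHL2-/- clone E (-0.055) or WT clone F (-0.131; highest 0.163), Blm without WT clone E (0.094, lowest -0.173), Fancg with centred arrays (-0.008), Xrcc3 with neighbours subtracted (-0.104), and Fancm with quantile normalization (-0.044), centred arrays (-0.002), neighbours subtracted (-0.193) and without FHL2-/- clone E (-0.029), FHL2-/- clone J (-0.102) or WT clone F (-0.056, highest 0.275). Mre11a turned to 0.059 without cross-hybridizing probe sets, where its other probe set took over. Tested separately, other probe sets of called genes read 0.05 for Rad54l, 0.059 for Mre11a, 0.038 for Exo1, 0.226 and 0.005 for Fancc, 0.011 for Fancd2 and 0.147 for Xrcc6; of the 19 other probe sets of called members, 14 had a mean level under 4.5 and 3 passed in the same direction.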
